A study of Mus musculus with 12 samples.

Results

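Among 16745 genes measured on arrays of mouse peritoneal macrophages, 87 were lower after exposure to apoA-I in every one of 6 treated-control pairs, 3 from MyD88-null cells and 3 from C57BL/6 cells. A gene was included if its probe was well above background on all 6 control arrays and its signal was at least 0.5 lower on the log2 scale with apoA-I than in the control of the same genotype and replicate number in all 6 pairs. Jun, Abcg1, Lpar6 and genes with names beginning Zfp, Slc, Nduf, Uqcr, Cox or Atp5 were left out. Of 14701 genes well above background on all 6 control arrays, 100 (0.68%) met the numerical criterion, and 13 of these were left out by name. The genes were thus selected on their measured decrease with apoA-I, and these responses to apoA-I are given as a description, without tests.

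The cells were thioglycollate-elicited peritoneal macrophages of female mice aged 10 weeks, collected 96 h after the injection. They were loaded overnight with cholesterol at 10 µg/ml and then held in medium with polymyxin B, which binds bacterial lipopolysaccharide, at 25 µg/ml; controls and treated cells of both genotypes shared these steps. The 4 groups of 3 arrays were MyD88-null cells with apoA-I at 10 µg/ml for 2 h, MyD88-null controls, C57BL/6 cells with apoA-I at the same dose and time, and C57BL/6 controls. The labels do not say how the MyD88 allele was made, or whether animals were pooled or replicates came from separate animals, so that the spread given here is that between samples and may be technical.

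For 2 arrays the labels conflict. The description of C57BL/6 control replicate 2 includes the apoA-I step, and that of MyD88-null apoA-I replicate 2 omits it; titles and source names were followed, and values without these samples are given where they bear on a result. The arrays were hybridised on 5 slides and scanned on 3 days. The 75th percentile of the processed intensity ran from 199 to 1408. It was lowest on MyD88-null apoA-I replicate 1, where 73.6% of probes exceeded background clearly, against 57.6% to 67.1% on the other 11 arrays. Myd88 itself stood at 2.75, 3.25 and 2.43 in treated MyD88-null cells, against 1.87, 2.10 and 1.40 in MyD88-null controls, and at 4.17, 4.29 and 3.41 in treated C57BL/6 cells, against 3.48, 3.49 and 2.96 in C57BL/6 controls. It was lower in MyD88-null than in C57BL/6 samples of each treatment without overlap, but well above background on all of them; the labels do not say whether its probe lies in the deleted part. All 7 macrophage markers were well above background on all 12 arrays. Their summed log2 level was 9.41 to 10.3 with apoA-I, against 9.27 to 9.52 without it, in MyD88-null cells, and 9.41 to 9.78 with apoA-I, against 9.09 to 9.67 without it, in C57BL/6 cells. The brightest of them, Lyz2, weighs most in this sum and was 0.47 higher with apoA-I on average over the 6 pairs. The other 6 were lower on average, from -0.02 for Adgre1 to -0.49 for Mertk. The summed level of 3 dendritic cell markers, of which Cd209a was above background on no array, was -1.36 to 0.10 with apoA-I, against -3.41 to -0.93 without it, in MyD88-null cells, and -0.76 to 0.21 with apoA-I, against -2.28 to -0.82 without it, in C57BL/6 cells. All 4 T cell markers were also higher with apoA-I on average over the 6 pairs, by 0.35 to 0.75, as was the NK cell marker Klrb1c, by 0.67. The part of these marker differences in the decreases below was not tested, and in bulk RNA fewer cells of a type and less RNA per cell cannot be told apart.

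ApoA-I, the chief apolipoprotein of HDL particles, takes up cholesterol that macrophages export through the transporter ABCA1. MyD88 relays signals of Toll-like and interleukin-1 family receptors to NF-kappaB and MAP kinases. The FoxO transcription factors, held out of the nucleus by Akt signalling, drive genes of growth arrest, atrophy and cell death, and C/EBP-alpha is a transcription factor of the myeloid lineage. Several of the genes lowered here have such roles in other cells; these roles are given as background.

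Promoter sequences are shown for 4 of the genes because their start regions hold the letters of a FoxO core or an E-box. Of the 87 genes, 61 had RefSeq promoter windows, 89 in all, each covering 250 bases before and 50 after a transcript start (build GRCm38.p6). The FoxO core GTAAACA, searched on both strands, was found in 5 of these windows (5.62%) and in 3.65% of all 32851 windows of the table. The E-box CACGTG, which reads the same on both strands, was found in 10 windows of these genes (11.2%) and in 7.15% of all windows. The cAMP response element TGACGTCA was in 2 windows (2.25%) against 1.79%, the CCAAT box in 38.2% against 37.4%, and the C/EBP palindrome TTGCGCAA in 0% against 0.183%. The median GC content was 61.0% in the windows of these genes and 52.7% in all windows, and the shares were not adjusted for it. Several windows belong to 1 gene and may overlap, and Frat1 and Frat2 hold the FoxO core in a sequence that both share, so that the windows are not independent. Counted by gene, the FoxO core was found in 5 of the 61 genes (8.20%), against 4.05% of all genes with windows. For the E-box these shares were 7 of 61 (11.5%) and 8.09%. In the sequences below, written 5′ to 3′ along the gene, capitals mark the FoxO core (on either strand) in Frat1, Frat2 and Sesn1 and the E-box in Gadd45g.
Frat1 (chr19:41829720-41830019, plus strand): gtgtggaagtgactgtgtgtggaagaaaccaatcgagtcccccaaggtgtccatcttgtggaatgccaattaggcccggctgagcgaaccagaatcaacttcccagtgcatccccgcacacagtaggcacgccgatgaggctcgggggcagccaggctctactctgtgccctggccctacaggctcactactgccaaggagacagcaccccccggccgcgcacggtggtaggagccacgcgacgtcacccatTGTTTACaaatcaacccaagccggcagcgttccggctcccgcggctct
Frat2 (chr19:41848083-41848382, minus strand): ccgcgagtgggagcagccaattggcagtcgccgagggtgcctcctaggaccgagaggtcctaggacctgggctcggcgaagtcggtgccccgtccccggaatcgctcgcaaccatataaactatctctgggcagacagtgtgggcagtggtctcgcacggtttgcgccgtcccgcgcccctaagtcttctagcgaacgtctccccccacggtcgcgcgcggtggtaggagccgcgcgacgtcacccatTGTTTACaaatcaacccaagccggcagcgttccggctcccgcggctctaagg
Sesn1 (chr10:41810324-41810623, plus strand): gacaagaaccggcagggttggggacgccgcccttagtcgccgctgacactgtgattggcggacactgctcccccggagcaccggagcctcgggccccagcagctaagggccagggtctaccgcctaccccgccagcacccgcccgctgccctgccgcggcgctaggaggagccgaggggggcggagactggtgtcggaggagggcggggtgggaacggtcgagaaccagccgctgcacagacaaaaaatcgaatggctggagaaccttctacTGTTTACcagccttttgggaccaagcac
Gadd45g (chr13:51846425-51846724, plus strand): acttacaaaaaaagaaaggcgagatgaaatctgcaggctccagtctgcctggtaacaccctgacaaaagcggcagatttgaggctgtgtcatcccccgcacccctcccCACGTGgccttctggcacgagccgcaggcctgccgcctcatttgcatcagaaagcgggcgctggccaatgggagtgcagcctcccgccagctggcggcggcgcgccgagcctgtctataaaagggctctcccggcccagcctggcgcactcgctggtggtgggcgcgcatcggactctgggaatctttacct

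The windows of Frat1 and Frat2 shared an unbroken run of 63 bases that spans the start of each gene, from base -13 in Frat1 and from base -17 in Frat2, counted from the start site. The FoxO core lies inside this shared run, from base 3 in Frat1 and from base -2 in Frat2. In Sesn1 it begins at base 23 and in Gadd45g the E-box begins at base -142. Such a match describes the letters only, and binding was not measured. The other window of Sesn1 and the windows of Arrdc3 and Tsc22d3 held no FoxO core, and Fbxo32 had no window.

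Across the 87 genes the mean difference over 6 pairs had a median of -1.17 on the log2 scale, a 2.25-fold decrease, and ran from -2.67 for AK033632 to -0.67 for Brat1. On average 62 genes were at least 2-fold lower. The median difference was -1.12 in MyD88-null cells and -1.21 in C57BL/6 cells; the decrease was larger in MyD88-null cells for 25 genes and in C57BL/6 cells for 62. The 3 samples with apoA-I lay below the 3 controls without overlap for 60 genes in MyD88-null cells (5.34% of all genes), for 69 in C57BL/6 cells (6.35%) and for 57 in both (2.15%). For 29 genes all 6 samples with apoA-I lay below all 6 controls, which held for 0.83% of all genes. Nothing is read from these shares, since the criterion that chose the genes favours such separation. The opposite criterion, at least 0.5 higher with apoA-I in all 6 pairs, was met by 408 of 14727 genes (2.77%).

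**Figure D1:**
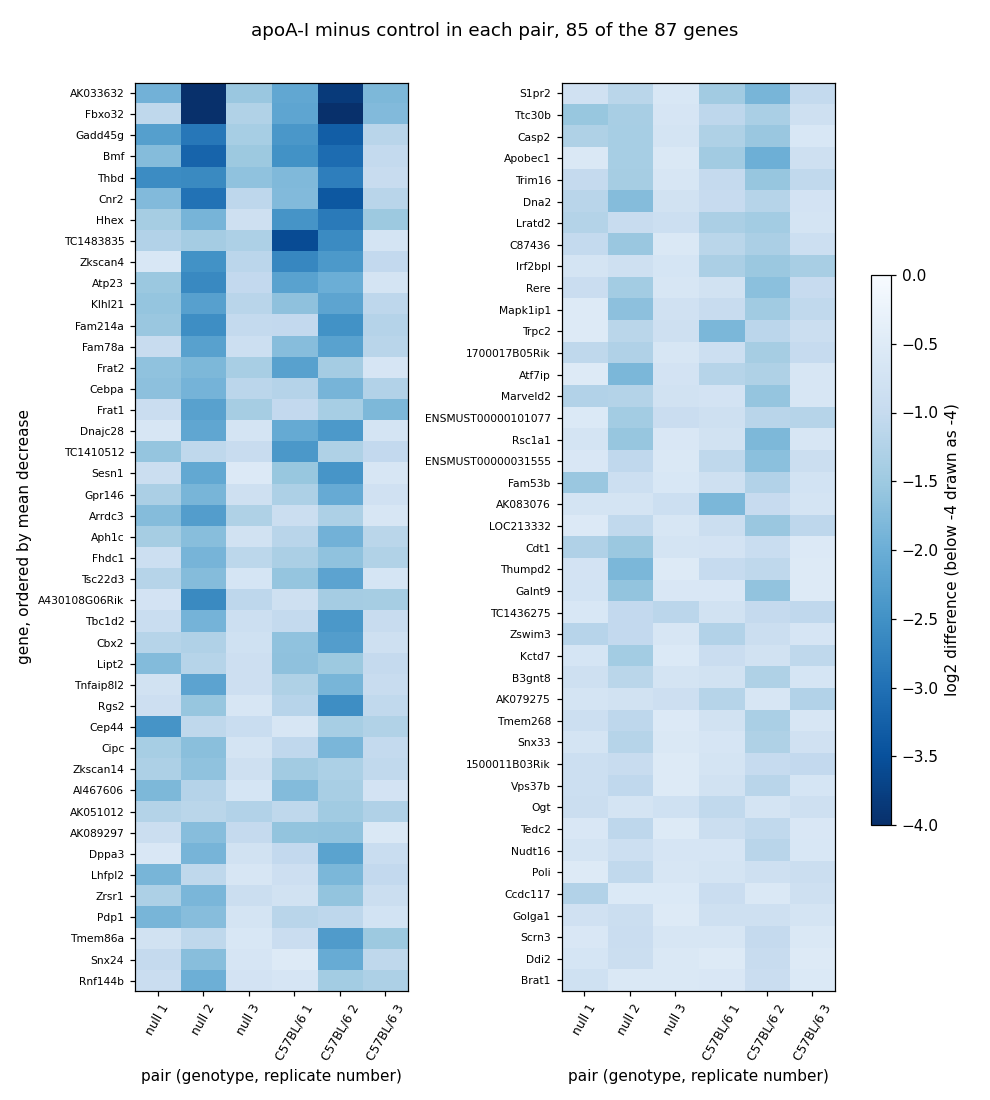
Difference between apoA-I and control (log2) in each of 6 pairs for 85 of the 87 genes, ordered by their mean decrease from the top left. The columns of replicate 2 are darkest in both genotypes, with median differences over all 87 of -1.52 and -1.53, and those of replicate 3 are pale, with medians of -0.75 and -0.93.

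The size of the decrease varied among replicate numbers in both genotypes. The median over the 87 genes was -0.95, -1.52 and -0.75 in MyD88-null pairs 1, 2 and 3, and -1.09, -1.53 and -0.93 in C57BL/6 pairs 1, 2 and 3. The median over all genes stayed between -0.05 and 0.11 in these pairs. Replicate 2 held the strongest pair for 68 of the 87 genes, 29 in MyD88-null and 39 in C57BL/6 cells, and replicate 3 the weakest pair for 63 genes, 39 in MyD88-null and 24 in C57BL/6 cells. Both samples with conflicting descriptions belong to replicate 2. The median was -0.81 in MyD88-null cells without MyD88-null apoA-I replicate 2, and -1.35 in C57BL/6 cells without C57BL/6 control replicate 2. In the 3 pairs hybridised on a single slide, MyD88-null pair 3 and C57BL/6 pairs 1 and 2, the medians were -0.75, -1.09 and -1.53. The 75th percentile with apoA-I was 0.589, 0.627 and 0.754 times that of the control in MyD88-null pairs 1, 2 and 3, and 0.996, 0.878 and 0.429 times in C57BL/6 pairs; the part of array brightness in the decreases was not tested.

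**Figure D2:**
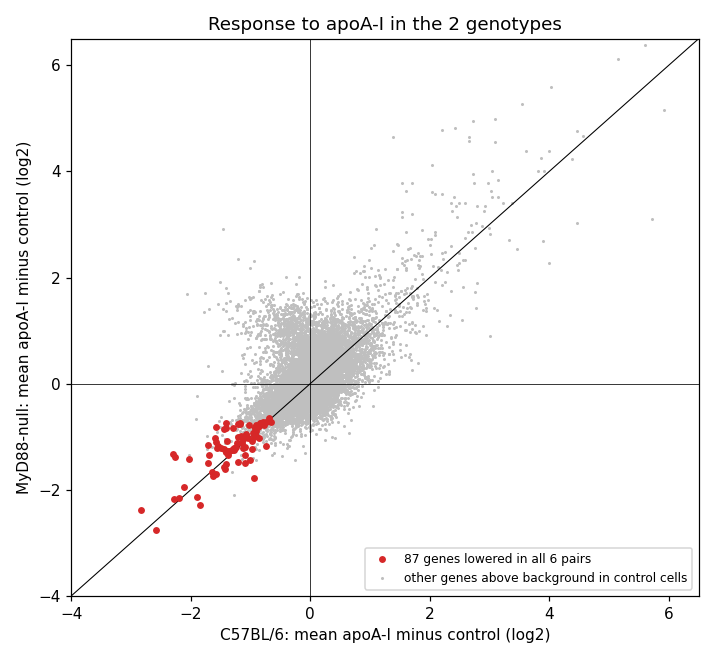
Mean apoA-I minus control difference (log2) over 3 pairs in MyD88-null cells (vertical) against C57BL/6 cells (horizontal) for genes well above background in control cells, with the 87 genes in red and the diagonal marking equal responses. All 87 lie in the lower left by the rule that chose them, and 62 of them lie above the diagonal, lower in C57BL/6 than in MyD88-null cells.

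The largest decreases were those of neighbouring probes on chromosome 15. Fbxo32 encodes atrogin-1, an F-box subunit of a ubiquitin ligase that FoxO factors induce in wasting muscle. Its log2 signal stood at 3.86, -0.56 and 3.79 in treated MyD88-null cells, against 4.95, 4.23 and 5.05 in MyD88-null controls, and at 1.61, -1.84 and 2.14 in treated C57BL/6 cells, against 3.76, 2.72 and 3.92 in C57BL/6 controls. Replicate 2 with apoA-I was far below the other treated samples in both genotypes, and the groups did not overlap within either genotype. The mean difference over 6 pairs was -2.61 ± 1.65 (SD, n = 6), or 6.09-fold. The unnamed transcript AK033632, whose probe (chr15:58243172-58243231, build mm7) lies 2302 bases from that of Fbxo32 (chr15:58245533-58245592) on the same strand, differed by -2.67 ± 1.33 on average and was well above background on 2 of 3 treated arrays of each genotype; the pair may report 1 locus and is not counted as independent evidence.

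A group of 7 genes has roles in growth arrest, cell death or the restraint of inflammation, and their mean differences ran from -2.23 to -1.13. Gadd45g, a growth arrest and DNA damage-inducible protein that activates a kinase upstream of p38 and JNK, had log2 signals of 4.42, 2.98 and 4.60 with apoA-I, against 6.68, 5.88 and 5.99 without it, in MyD88-null cells, and 2.99, 1.85 and 4.10 with apoA-I, against 5.40, 5.15 and 5.26 without it, in C57BL/6 cells. Every treated sample was below every control, and the decrease averaged 4.71-fold (-2.23 ± 0.83, SD, n = 6). Bmf, a BH3-only protein that promotes apoptosis, stood at -1.16, -2.17 and -0.24 in treated MyD88-null cells, against 0.58, 1.03 and 1.27 in MyD88-null controls, and at -2.18, -2.73 and -0.33 in treated C57BL/6 cells, against 0.30, 0.34 and 0.70 in C57BL/6 controls. Its treated and control samples did not overlap on this probe (-2.17 on average), but a second Bmf probe above background was 0.41 higher with apoA-I on average and lower in only 2 of 6 pairs. Sesn1, a sestrin that restrains mTORC1, was at 2.34, 1.33 and 3.00 in treated MyD88-null cells, against 3.25, 3.43 and 3.54 in MyD88-null controls, and at 1.24, 0.07 and 1.83 in treated C57BL/6 cells, against 2.80, 2.50 and 2.48 in C57BL/6 controls. The mean decrease of Sesn1 was 2.57-fold, and the controls of MyD88-null cells lay above those of C57BL/6 cells.

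Tnfaip8l2 encodes TIPE2, which restrains Toll-like and T cell receptor signalling. It had log2 signals of 2.70, 1.58 and 2.80 with apoA-I, against 3.46, 3.76 and 3.65 without it, in MyD88-null cells, and 1.70, 0.64 and 2.06 with apoA-I, against 2.98, 2.50 and 3.01 without it, in C57BL/6 cells, with no overlap within a genotype and a mean difference of -1.31 ± 0.58. Tsc22d3, the glucocorticoid-induced leucine zipper protein, was at 1.81, 1.96 and 3.79 in treated MyD88-null cells, against 3.01, 3.71 and 4.47 in MyD88-null controls, and at 0.75, 1.20 and 2.88 in treated C57BL/6 cells, against 2.34, 3.39 and 3.56 in C57BL/6 controls. Its groups overlapped in both genotypes although each pair fell. Arrdc3, an alpha-arrestin that directs receptors to ubiquitination, differed by -2.29 to -0.64 over the 6 pairs, and was well above background on 1 of 3 treated arrays in MyD88-null cells and 2 of 3 in C57BL/6 cells. Casp2, a caspase activated by DNA damage and mitotic faults, differed by -1.54 to -0.62.

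**Figure D3:**
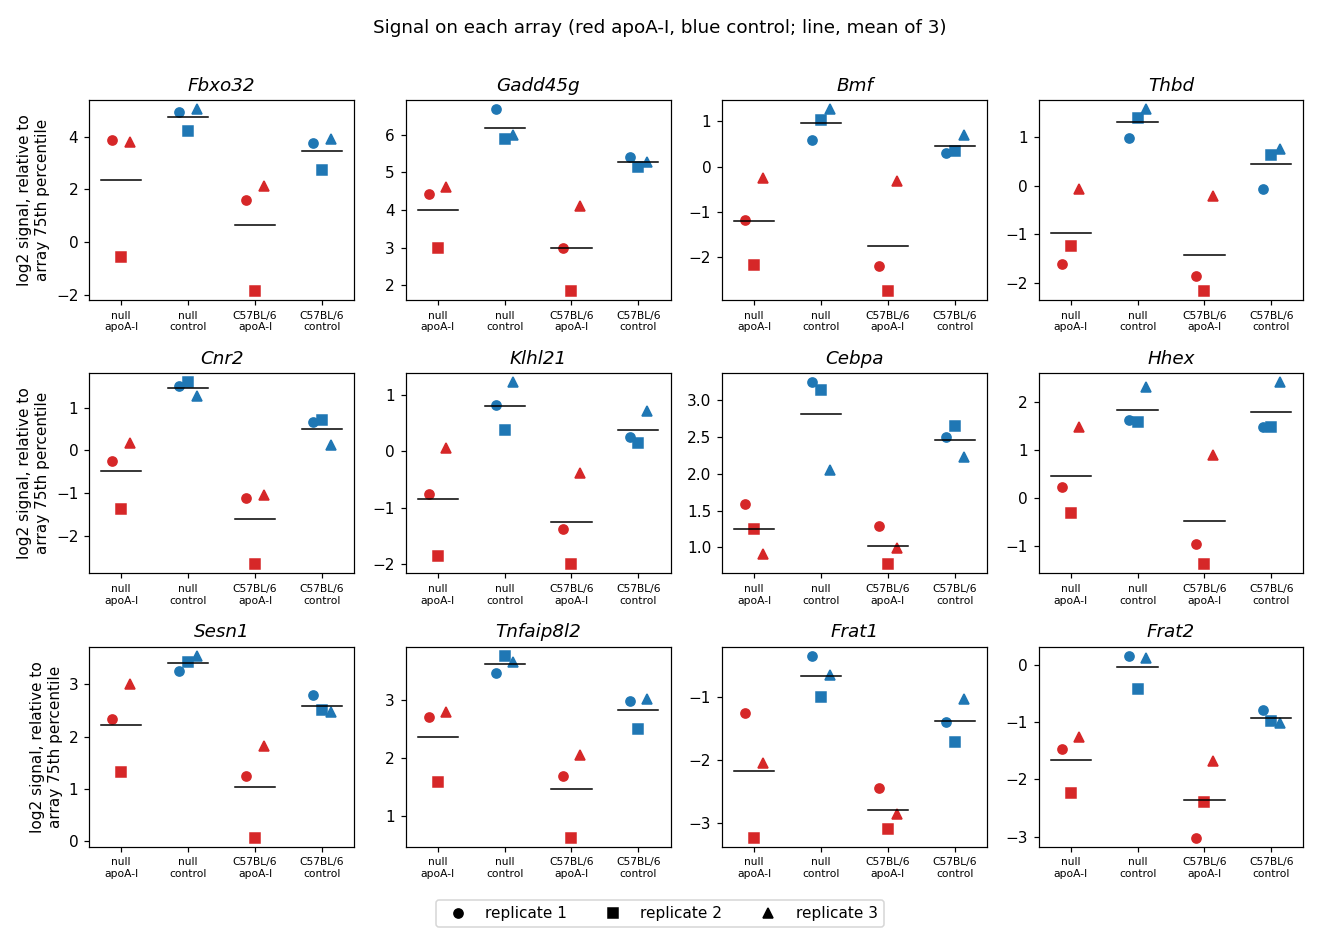
Log2 level (signal over the 75th percentile of its array) on each of 12 arrays for 12 of the 87 genes, with a marker for each replicate number and a line at the mean of 3. Samples with apoA-I (red) lie below the controls of their genotype (blue) in every panel, and replicate 2 with apoA-I is the lowest treated sample in most panels.

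Genes assigned to transcription and chromatin numbered 13, with mean differences of -1.82 to -0.94. Hhex, a homeobox factor of blood and endothelial progenitors, was at 0.23, -0.30 and 1.49 in treated MyD88-null cells, against 1.64, 1.58 and 2.33 in MyD88-null controls, and at -0.95, -1.37 and 0.91 in treated C57BL/6 cells, against 1.49, 1.48 and 2.42 in C57BL/6 controls. The treated samples were lower than the controls in each genotype, with a mean difference of -1.38 in MyD88-null cells and of -2.27 in C57BL/6 cells. Cebpa, required for the myeloid lineage, was at 1.58, 1.25 and 0.91 in treated MyD88-null cells, against 3.25, 3.15 and 2.05 in MyD88-null controls, and at 1.29, 0.77 and 0.99 in treated C57BL/6 cells, against 2.50, 2.66 and 2.23 in C57BL/6 controls. The mean difference was -1.51 ± 0.35 (SD, n = 6), and a second probe differed by -1.25 on average and was lower in all 6 pairs.

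Cipc, which binds CLOCK and represses its activity, stood at 3.22, 2.72 and 4.62 in treated MyD88-null cells, against 4.60, 4.41 and 5.32 in MyD88-null controls, and at 2.89, 2.07 and 3.72 in treated C57BL/6 cells, against 3.97, 3.93 and 4.74 in C57BL/6 controls, a mean decrease of 2.44-fold. Zkscan4 and Zkscan14, zinc finger proteins with SCAN and KRAB domains, differed by -1.72 and -1.27 on average, and Zkscan4 was well above background on only 1 of 3 treated arrays of each genotype. Cbx2, a chromodomain subunit of Polycomb repressive complex 1, differed by -1.34, and was well above background on 1 of 3 treated C57BL/6 arrays. Rere, a corepressor of the atrophin family, differed by -1.07, and Atf7ip, a partner of the histone methyltransferase SETDB1, by -1.03 with overlapping ranges in both genotypes. Irf2bpl differed by -1.07, Dppa3, a maternal factor of the early embryo, by -1.23, and Zrsr1, a splicing factor of the U2AF family, by -1.22.

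Receptors, channels and regulators of G protein signalling numbered 8, all with mean differences between -2.06 and -1.06. Thbd, thrombomodulin, which turns thrombin towards activating protein C, was at -1.61, -1.25 and -0.06 in treated MyD88-null cells, against 0.98, 1.38 and 1.57 in MyD88-null controls, and at -1.86, -2.16 and -0.22 in treated C57BL/6 cells, against -0.07, 0.63 and 0.75 in C57BL/6 controls. Cnr2, the cannabinoid receptor of immune cells, had log2 signals of -0.26, -1.38 and 0.18 with apoA-I, against 1.52, 1.59 and 1.28 without it, in MyD88-null cells, and -1.12, -2.67 and -1.06 with apoA-I, against 0.66, 0.71 and 0.11 without it, in C57BL/6 cells. Neither gene had a treated sample at the level of a control of its genotype; Thbd was 4.18-fold and Cnr2 4.08-fold lower on average, and a second Cnr2 probe also met the criterion (-1.67 on average). Rgs2, which speeds GTP hydrolysis by Gq, differed by -2.56 to -0.65 over the pairs, and by -0.63 on average on a second probe, which was lower in 4 of 6 pairs. Gpr146, an orphan receptor, differed by -2.05 to -0.79 and S1pr2, a receptor for sphingosine 1-phosphate, by -1.86 to -0.61. Trpc2, a cation channel known from the mouse vomeronasal organ, differed by -1.06 on average, with overlapping ranges, against -0.73 and -0.27 on other probes, and was well above background on 2 of 3 treated MyD88-null arrays and 1 of 3 treated C57BL/6 arrays.

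Frat1 and Frat2, paralogs that bind GSK3 and keep it from phosphorylating beta-catenin, are neighbours whose probes lie 13825 bases apart on opposite strands of chromosome 19 (chr19:41726173-41726232 and chr19:41740057-41740116, mm7). Frat1 was at -1.26, -3.23 and -2.05 in treated MyD88-null cells, against -0.35, -1.0 and -0.65 in MyD88-null controls, and at -2.45, -3.09 and -2.86 in treated C57BL/6 cells, against -1.41, -1.72 and -1.04 in C57BL/6 controls. Frat2 had log2 signals of -1.47, -2.23 and -1.26 with apoA-I, against 0.16, -0.42 and 0.12 without it, in MyD88-null cells, and -3.01, -2.39 and -1.67 with apoA-I, against -0.78, -0.98 and -1.01 without it, in C57BL/6 cells. The mean differences were -1.46 ± 0.49 for Frat1 and -1.52 ± 0.52 for Frat2, and in C57BL/6 cells the strongest pair was replicate 3 for Frat1 and replicate 1 for Frat2. Fam53b, whose fish homologue acts on nuclear beta-catenin, differed by -0.97 on the probe used and by -0.05 on a second probe. A list of 22 eligible Wnt and Notch genes, which does not include Frat1, Frat2 or Fam53b, held 0 members. As only 0.68% of all eligible genes met the criterion, nothing is read from this count.

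Beside Fbxo32, 5 genes of the ubiquitin and proteasome system were lower. Klhl21, a substrate adaptor of cullin 3, was at -0.75, -1.86 and 0.06 in treated MyD88-null cells, against 0.84, 0.38 and 1.23 in MyD88-null controls, and at -1.39, -2.01 and -0.38 in treated C57BL/6 cells, against 0.26, 0.16 and 0.72 in C57BL/6 controls. Its groups did not overlap and the mean decrease was 3.15-fold. Rnf144b and Trim16, both ubiquitin ligases, differed by -1.17 and -1.11, and Ddi2, a protease that cleaves ubiquitinated NRF1, by -0.69. Kctd7 differed by -0.91 on the probe used, whereas a second probe was 0.31 higher on average. Rsc1a1, which differed by -1.02, has its probe 2889 bases from that of Ddi2 on the same strand, so that these genes may share transcripts.

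Genes of DNA replication, repair and the centriole numbered 7, with mean differences of -1.29 to -0.67. Cdt1, which loads the MCM helicase at replication origins, was at 2.54, 2.02 and 3.05 in treated MyD88-null cells, against 3.81, 3.54 and 3.77 in MyD88-null controls, and at 2.36, 2.17 and 2.73 in treated C57BL/6 cells, against 3.08, 3.10 and 3.28 in C57BL/6 controls. Dna2, a nuclease and helicase that processes Okazaki fragments, differed by -1.10 and the translesion polymerase Poli by -0.78, each with overlapping ranges. Cep44 and Tedc2, proteins of the centriole, differed by -1.29 and -0.79, and Ttc30b, of intraflagellar transport, by -1.14; Cep44 was well above background on 1 of 3 treated arrays of each genotype. Of 51 eligible genes of a DNA repair list, which does not include Dna2 or Poli, 0 were members, where 0.68% of all eligible genes met the criterion. The list's median difference was -0.20, against 0.05 over all genes.

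Membrane traffic and the cytoskeleton held 8 genes. Tbc1d2, or Armus, a GTPase-activating protein for Rab7, differed by -2.38 to -0.87 over the pairs, but its second probe was 0.12 higher on average. Lhfpl2, a tetraspan membrane protein, differed by -1.87 to -0.65. The sorting nexins Snx24 and Snx33 differed by -1.17 and -0.87, Vps37b, an ESCRT-I subunit, by -0.84, the formin Fhdc1 by -1.35 and the golgin Golga1 by -0.76, against -0.09 and -0.38 on other probes of Golga1. These included 4 of 162 eligible genes (2.47%) of a Rab and Arf traffic list, against 0.68% of all eligible genes before names were left out; 5 genes of the list met the opposite criterion.

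A further 12 genes act in metabolism, glycosylation or mitochondria. Atp23, a metalloprotease of the mitochondrial intermembrane space in yeast, was at 0.30, -0.85 and 1.13 in treated MyD88-null cells, against 1.83, 1.78 and 2.18 in MyD88-null controls, and at -1.21, -1.34 and 0.19 in treated C57BL/6 cells, against 1.00, 0.65 and 0.89 in C57BL/6 controls. Its decrease averaged 3.21-fold without overlap. Pdp1, the phosphatase that activates pyruvate dehydrogenase, differed by -1.22, and Lipt2, which begins the lipoylation that this enzyme complex needs, by -1.33 ± 0.37. Tmem86a, a lysoplasmalogenase, differed by -1.20, Dnajc28, a J-domain protein, by -1.44 and Ogt, the transferase that adds O-GlcNAc to proteins, by -0.83, against -0.14 on a second probe of Ogt. Galnt9 and B3gnt8, glycosyltransferases of mucin-type and polylactosamine chains, differed by -0.94 and -0.90.

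Little is described of 10 further protein-coding members, among them Fam214a, Fam78a and Tmem268, which differed by -1.64, -1.52 and -0.88; Tmem268 had one of the 10 highest control signals. There were 2 long non-coding RNAs, A430108G06Rik and 1500011B03Rik, which differed by -1.35 and -0.84; the first was well above background on 1 of 3 treated arrays of each genotype. RefSeq named 76 of the 87, and the other 11 were transcript identifiers of the array. Of these TC1483835 was above background on no array of C57BL/6 cells with apoA-I, where it was at least 2.59-fold lower than in controls, and on 1 of 3 arrays of treated MyD88-null cells. In all, 79 of the 87 exceeded background clearly on each of the 12 arrays.

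Lists of related genes held few members each, and some also held genes raised by apoA-I. The lists were chosen with earlier results of these data known. Shares of members in them, here and above, are therefore a description only. Of 23 eligible FoxO and quiescence genes 4 were members (17.4%), where 0.68% of all eligible genes met the criterion: Fbxo32, Sesn1, Arrdc3 and Tsc22d3. In the same list 3 genes met the opposite criterion, Trib1 (2.04), Btg1 (1.18) and the second sestrin, Sesn2 (0.67), and the FoxO factor Foxo1 differed by -0.22; the list's median was -0.22, against 0.05 over all genes. Of 31 macrophage transcription factors 3 were members, Hhex and Cebpa among them, while Tfec (2.37), Ets2 (1.96) and Klf3 (0.94) were raised in all 6 pairs and Spi1, the gene of PU.1, differed by 0.19; the median was 0.11. A G protein-coupled receptor list, which does not include the member Cnr2, had 23 eligible genes, of which Gpr146 and S1pr2 were members (8.7%). Of its 28 measured genes 5 met the opposite criterion. The lysosomal (41 eligible genes), peroxisomal (28), mitochondrial translation (78), circadian clock (13), cytokine receptor (21) and phosphoinositide enzyme (59) lists held 0 members. As only 0.68% of all eligible genes met the criterion, nothing is read from these counts of 0.

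**Figure D4:**
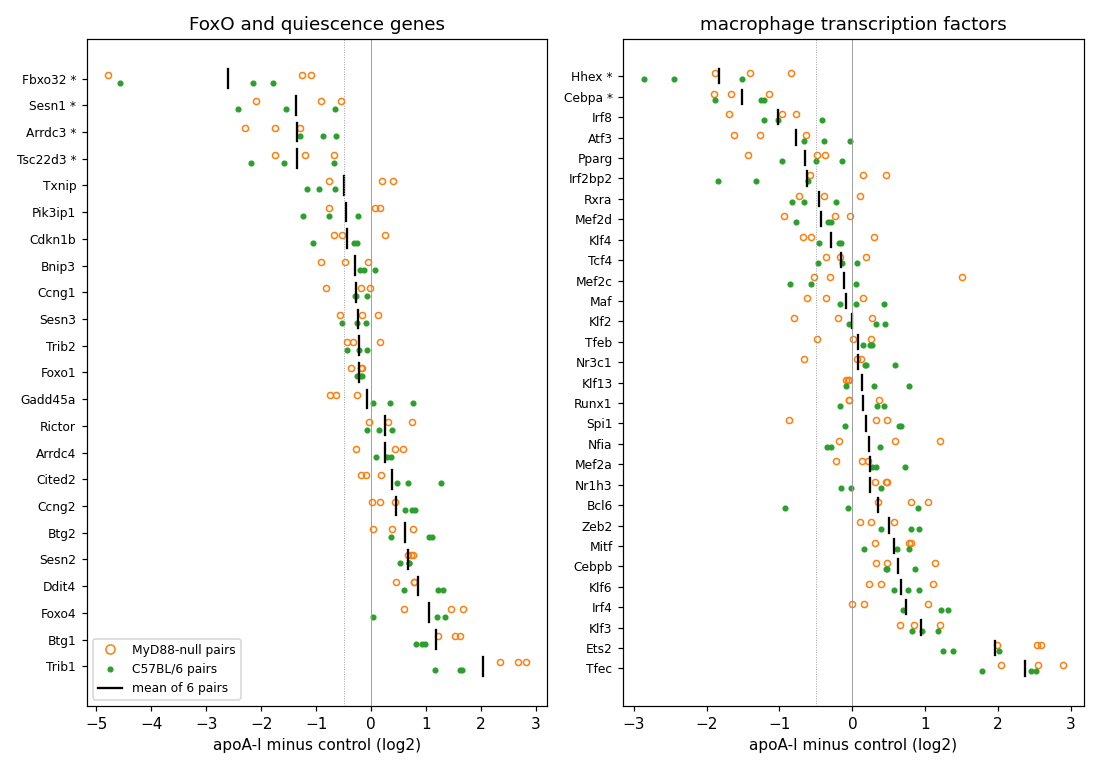
Difference between apoA-I and control (log2) in each pair for all but 1 of the eligible genes of 2 lists, with open circles for MyD88-null pairs, filled points for C57BL/6 pairs, a bar at the mean of 6 and a star on members. Members stand at the top of each list with mean differences of -2.61 to -1.35, while Trib1 and Tfec at the foot were higher by 2.04 and 2.37.

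The difference between genotypes, averaged over both treatments, was not used to choose the genes. Of the 87 genes, 85 were higher in MyD88-null than in C57BL/6 cells and 2, Irf2bpl and Cep44, were lower (-0.34 and -0.08). The median difference was 0.48, against 0.03 over all genes, of which 54.7% were higher in MyD88-null cells. By limma without pairing, 0 of the 87 passed an adjusted p of 0.05, while 44 of all genes did (0.263%). At an unadjusted p under 0.05 the genes numbered 22 of 87, against 6.93% of all genes. With the replicate block 4 of the 87 passed, all higher in MyD88-null cells, whereas 2.13% of all genes passed in either direction, 0.621% as higher and 1.5% as lower. The 87 genes share their arrays and vary together, so that the count of 85 is a description and not 85 separate observations. It was 84 without the 2 samples whose descriptions conflict, and 73 with a median of 0.24 when treatment was taken from the descriptions.

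Apobec1, the cytidine deaminase that edits apolipoprotein B mRNA, was among the 4. Its log2 signal stood at 2.86, 1.85 and 3.20 in treated MyD88-null cells, against 3.42, 3.23 and 3.77 in MyD88-null controls, and at 1.54, 0.56 and 2.09 in treated C57BL/6 cells, against 2.99, 2.54 and 2.92 in C57BL/6 controls, and averaged over treatments it was log2 0.95 ± 0.30 (SE) higher, with an adjusted p of 0.425 in limma and of 0.0314 with the replicate block. Scrn3, a secernin, had log2 signals of -3.01, -3.45 and -2.70 with apoA-I, against -2.41, -2.54 and -2.06 without it, in MyD88-null cells, and -3.54, -4.06 and -3.54 with apoA-I, against -2.90, -3.05 and -2.98 without it, in C57BL/6 cells, and was log2 0.65 ± 0.17 (SE) higher, with an adjusted p of 0.282 in limma and of 0.0306 with the replicate block. Aph1c, a subunit of gamma-secretase, was log2 0.84 ± 0.43 (SE) higher, with an adjusted p of 0.81 in limma and of 0.0494 with the replicate block. The unnamed transcript TC1436275 was log2 0.98 ± 0.54 (SE) higher, with an adjusted p of 0.832 in limma and of 0.0414 with the replicate block. The SE given for each of these is that of limma without the block, and does not belong to the adjusted p with the replicate block. Scrn3 was higher in MyD88-null than in C57BL/6 samples in each replicate number and treatment.

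Values of each treatment also entered the criterion. Comparisons within a treatment, here and in the next paragraph, are therefore not independent of the choice of genes. In control cells alone the median genotype difference of the 87 genes was 0.45. There 0 of the 87 passed with or without the replicate block, against 16 of all genes (0.0956%) without it and 99 (0.591%) with it, and 3 of the 87 against 3.52% of all genes had an unadjusted p under 0.05.

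The median was above 0 in each replicate number and treatment. With apoA-I the median difference was 0.51, 0.52 and 0.56 in replicates 1, 2 and 3, and 75, 77 and 79 of the 87 genes were higher in MyD88-null cells. Without apoA-I it was 0.41, 0.49 and 0.51, and 81, 83 and 75 genes were higher. On a single slide, the medians were 0.41 for the controls of replicate 1, 0.52 for the treated cells of replicate 2 and 0.56 for those of replicate 3. With the slide as a block 82 of the 87 were higher, with a median of 0.35. The 408 genes raised by apoA-I in all 6 pairs differed the other way, with a median of -0.49 and 62 of 408 higher in MyD88-null cells.

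**Figure D5:**
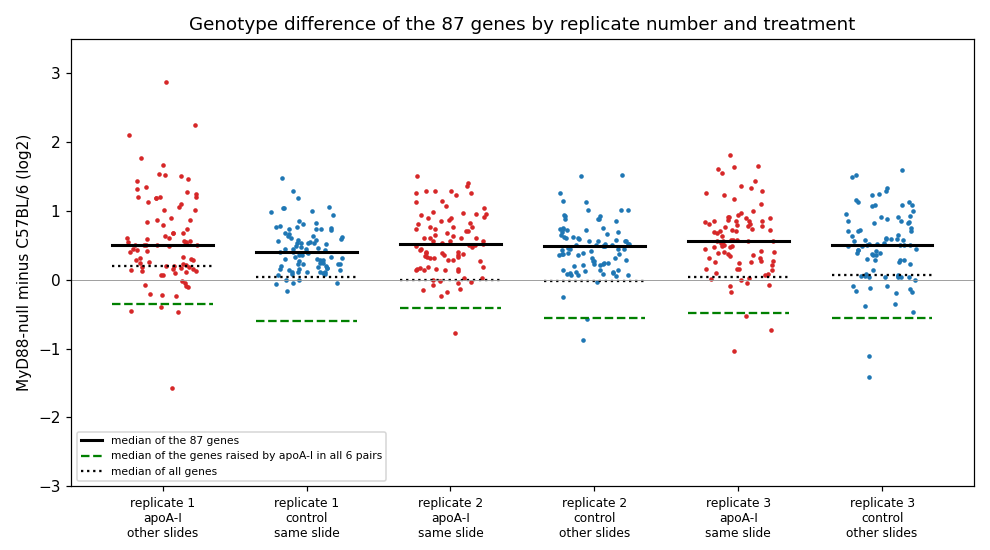
MyD88-null minus C57BL/6 difference (log2) of each of the 87 genes by replicate number and treatment, with apoA-I in red and controls in blue. The solid line, the median of the 87, lies between 0.41 and 0.56, the dashed line, the median of the 408 genes raised by apoA-I, between -0.60 and -0.35, and the dotted line, the median of all genes, between -0.02 and 0.19.

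Summed markers of B cells and mast cells were lower in MyD88-null than in C57BL/6 cells, without overlap. The summed log2 level of 4 B cell markers was 2.03 to 2.87 in MyD88-null cells and 2.91 to 3.14 in C57BL/6 cells, and that of 3 mast cell markers was -0.46 to 0.44 in MyD88-null cells and 0.62 to 1.00 in C57BL/6 cells. Their part in the difference of the 87 genes was not tested.

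Membership depended on where the threshold fell. Of the 87 genes, 17 had a weakest pair within 0.05 of the threshold, the closest being Vps37b, Mapk1ip1 and Tedc2, whose weakest pair was at -0.50. Just outside lay 32 genes within 0.05, the closest being the clock gene Per1, Lpin1, which makes diacylglycerol and coregulates lipid genes, and BC013712, with weakest pairs of -0.50, -0.50 and -0.49. Without MyD88-null pair 1, 153 genes met the criterion, and without C57BL/6 pair 3, 132 did. Leaving out a pair can only add genes, so that all 87 were kept by construction. Of 42 other probes above background for 32 of the genes, 39 were lower with apoA-I on average, 29 were lower in all 6 pairs and 12 met the criterion themselves. The 13 probes that were not lower in all 6 pairs belonged to Bmf, C87436, Ccdc117, Fam53b, Golga1, Kctd7, Marveld2, Ogt, Rgs2, S1pr2, Tbc1d2 and Trpc2.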

How the data were processed

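RNA of 12 samples was labelled with Cy3 and hybridised to one-colour Agilent arrays; groups and replicate numbers came from the sample titles. The deposited intensity values are processed signals from Agilent Feature Extraction; the submitters' processing notes name version 9.5, and 9.5.3.1 and 9.5.1.1 stand in the headers. The signals are background-corrected per the file headers, and their levels were not equalised between arrays. A table of processed values deposited by the authors follows log10 of these intensities in each array (correlations of 0.993 to 1.00, column medians of 1.82 to 1.87); its scaling and centring are unknown, and it was used as an alternative only. Log2 was taken of the deposited intensities and the log2 of each array's 75th percentile over probes was subtracted; outlier spots were dropped and repeated spots averaged. Probes had to exceed background clearly on every array of 1 group or more, and each gene was represented by its brightest such probe on average, which left 24351 probes and 16745 genes. Names came from RefSeq (GRCm38.p6); probe positions are those of build mm7 in the files.

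The genotype difference was tested with limma 3.58.1 in R 4.3.3 on all 12 arrays and all genes, with 4 group means and Benjamini-Hochberg adjustment. The number of arrays limits the precision. Same-numbered samples deviated together from their group means in all 18 comparisons (r of 0.30 to 0.86). For samples of different numbers r ran from -0.81 to 0.55. Replicate 3 was also scanned on a separate day, so that a pairing and a shared batch cannot be told apart. Fits with the replicate number as a block are given where they change a call. The criterion, the gene lists and the tests were chosen with earlier results of these data known; role groups were assigned after the genes were known. Values of some of the genes are not reported here. Named genes were the 15 largest decreases, the 10 with the highest control signal, up to 4 per list, those past the threshold between genotypes and those nearest the criterion; others illustrate a role. The fit without a block was checked on simulated data with independent noise on each array. The planted genotype differences were larger than any of the 87 genes. The check therefore does not bear on differences of their size or on the replicate block. Alternatives covered normalization, centring, the deposited table, filters, thresholds, batches and left-out samples.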

Additional observations from a re-analysis of the deposited data

How the results depend on the processing

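The number of genes that met the criterion was 87. It was 301 when arrays were centred on the median, 176 at a threshold of 0.4, 25 at a threshold of 0.75 and 246 without the pairs of replicate 3, scanned on a separate day; leaving out 1 pair at a time gave 89 to 153, and 92 without the pairs that hold the samples with conflicting descriptions. It was 73 with normexp and quantile normalization (59 of the 87 among them), 122 in the deposited table (75 among them), and, chosen after seeing the data, 109 with the percentile taken over spots (all 87 among them). The number of genes called between genotypes, averaged over treatments, was 44 of all genes. It was 26 with median centring, 356 with the replicate block, 9 with the slide as a block, 24 without the filter on dim probes, 15 without the 2 samples whose descriptions conflict, 2 with treatment taken from the descriptions and 1 without replicate 3; leaving out 1 array gave 21 to 45. In control cells 16 were called, against 25 with normexp and quantile normalization, 99 with the replicate block, 2 each with the slide block, without the conflicting samples and by the descriptions, and 1 without replicate 3; leaving out 1 array gave 6 to 16. Of the 87 genes 0 were called between genotypes without the replicate block and 4 with it; leaving out 1 array left 0. Between 73 and 86 of the 87 were higher in MyD88-null cells under every setting run, and 82 to 85 when 1 array was left out. Their median genotype difference of 0.48 was 0.39 with normexp and quantile normalization, 0.43 in the deposited table, 0.35 with the slide block, 0.44 with scan day as a block, 0.64 without the conflicting samples, 0.24 by the descriptions, and 0.36 to 0.68 without 1 array. The median response in MyD88-null cells was -1.12, -1.57 with median centring, -0.44 by the descriptions and -1.40 to -0.81 without 1 array; in C57BL/6 cells it was -1.21, and -1.41 to -0.91 without 1 array. Median centring moved the median response of all genes to -0.40 in MyD88-null cells and -0.07 in C57BL/6 cells, against 0.05 in MyD88-null cells with the 75th percentile; relative to it, the 87 genes had medians of -1.18 in MyD88-null and -1.21 in C57BL/6 cells. The replicate block cannot change these medians, since each replicate number occurs once in every group. The cause of these differences was not tested.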
